A study of Homo sapiens with 32 samples.

Results

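The examined miRNAs have hairpins that are known, or are paralogues of hairpins known, for reaching the cytoplasm without cleavage by the Microprocessor. They were chosen by name from the deposited read-count table, with earlier results of these data known. They are the 5 rows mir-320a to mir-320e, mir-484, mir-877 and mir-1226, which are 8 of 1513 miRNA rows. The table came from 293T cells (CRL-3216), an immortal line from human embryonic kidney with SV40 large T antigen. Clones of this line were either wild type or carried the genotype labelled DGCR8 delta103-126Q, in which prime editing had removed the reported binding site of ERH from DGCR8. Prime editing uses a Cas9 nickase with an attached reverse transcriptase to copy a short change from the guide RNA into the genome. Each clone was transiently transfected with each of 4 vectors, 2 encoding the non-targeting hairpins control shRNA_1 and control shRNA_2 and 2 encoding shERH_1 and shERH_2 against ERH. Puromycin at 2 µg/ml was applied from 24 h, and cells with the vector's fluorescent marker were sorted on day 5. The wild-type clones were numbered 52, 55, 57 and 67 and the deletion clones 30, 34, 42 and 43, so that 32 libraries formed 8 groups of 4. Each clone stood for 1 replicate, and the 2 libraries of an arm (control or ERH shRNAs) were summed within it. Each clone is a separate isolate, so differences between genotypes hold the differences between clones as well. A miRNA table measures neither ERH mRNA nor the edit in DGCR8, which leaves the success of both manipulations unchecked here.

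Most miRNAs begin as hairpins in long primary transcripts, from which the Microprocessor (the nuclease DROSHA with its RNA-binding partner DGCR8) cuts the precursor hairpin. ERH is a small nuclear protein that binds the N-terminal part of DGCR8. Some hairpins skip this cut. The miR-320 precursor starts at the first base of its own RNA polymerase II transcript, keeps the cap and leaves the nucleus through exportin-1, and miR-484 is likewise known to need DICER and not DGCR8. Mirtrons such as miR-877 and miR-1226 are short introns that the spliceosome releases and a debranching enzyme opens into a hairpin. All of these precursors still need DICER.

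The hairpins of the mirtrons and of miR-484 are shown because the ends of the former are the ends of an intron, and the latter lies in an exon. Sequences and coordinates are those of RefSeq on GRCh38.p14, in which 7 of the 8 rows matched 10 loci. The row without a match was mir-320a, so its sequence was neither shown nor compared, and its GC content came from GENCODE. In the pair of mirtrons the capitals mark the first and last 2 bases, the GU and AG of an intron, and in MIR484 they mark the mature miRNA.
MIR877: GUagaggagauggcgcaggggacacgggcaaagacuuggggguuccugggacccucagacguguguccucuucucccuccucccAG
MIR1226: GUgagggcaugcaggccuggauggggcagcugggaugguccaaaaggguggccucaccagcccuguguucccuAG
MIR484: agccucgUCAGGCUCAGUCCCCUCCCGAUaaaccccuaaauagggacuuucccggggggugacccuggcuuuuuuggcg

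MIR877 (chr6:30584332-30584417, plus strand, 86 bases) filled an intron of ABCF1 from end to end, with 0 bases of the intron before or after it in GENCODE release 29. MIR1226 (chr3:47849555-47849629, plus strand, 75 bases) filled an intron of DHX30 in the same way. MIR484 (chr16:15643294-15643372, plus strand, 79 bases) lay inside the first exon of NDE1, starting 27 bases after the start of that exon. The hairpins of these 3 rows were GC rich, at 62.8% for mir-877, 64.0% for mir-1226 and 59.5% for mir-484, and mir-320a had 59.8%. The remaining paralogues had 41.3% for mir-320b, 44.4% for mir-320c, 42.4% for mir-320d and 50.7% for mir-320e.

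The mature sequences of miR-320b to miR-320e are shown because these rows differ so little that the assignment of their reads is uncertain. How close miR-320a is to them was not compared. Capitals mark the seed, bases 2 to 8, the stretch that pairs with targets.
hsa-miR-320b: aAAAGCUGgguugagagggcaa
hsa-miR-320c: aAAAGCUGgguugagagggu
hsa-miR-320d: aAAAGCUGgguugagagga
hsa-miR-320e: aAAGCUGGguugagaagg
hsa-miR-484: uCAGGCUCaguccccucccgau
hsa-miR-877-5p: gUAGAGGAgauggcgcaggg
hsa-miR-1226-3p: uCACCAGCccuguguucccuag

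Counted from the 5′ end of miR-320b, miR-320c shared 19 of 20 bases with it and differed by C20U, and miR-320d shared 18 of 19 and differed by G19A. The miR-320e sequence began at position 2 of miR-320b and shared 17 of 18 bases, with G17A, so its seed is shifted by 1 base. The single differences of miR-320c and miR-320d sit at the 3′ end, where reads are trimmed and where miRNAs are often shortened or tailed. Copies of a hairpin at several loci fed 1 row. The mir-320b row covers MIR320B1 (chr1:116671746-116671817, plus strand, in no host gene) and MIR320B2 (chr1:224257040-224257110, minus strand, in an intron of NVL on the same strand). The mir-320c row covers MIR320C1 and MIR320C2, both on chromosome 18 and opposite to introns of ABHD3 and OSBPL1A, and the mir-320d row covers MIR320D1 on chromosome 13 and MIR320D2 on chromosome X, in no host gene. MIR320E (chr19:46709282-46709354, minus strand) lies in an intron of PRKD2 on the same strand. None of the seeds of miR-877 and miR-1226 occurred in another of 2370 mature names. The miR-320b seed also occurred in miR-4429, whose row held no count in any of the 32 libraries, and the miR-484 seed in miR-3155a and miR-3155b.

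Libraries held 1318923 to 6222790 miRNA counts and 9139 to 33090 spike-in counts, and 683 to 884 rows had a count. Values below are CPM, counts scaled to the library's miRNA total with TMM factors, a scale relative to the other miRNAs and not corrected for length. miRNAs that belong to blood, muscle and liver cells, which a kidney line should lack, were also counted. All 5 of 5 (mir-142, mir-223, mir-1, mir-133a and mir-122) had counts, and their summed level ran over 470–974 CPM in wild-type control sums, 271–798 with ERH shRNAs, 283–2594 in deletion control sums and 345–1190 in deletion sums with ERH shRNAs. Under the knockdown mir-142, mir-133a and mir-122 were lower, by log2 fold changes of -0.56, -0.81 and -0.91 (adjusted p = 0.0194, 0.00275 and 0.00729 by edgeR). The rows mir-223 and mir-1 stood at -0.54 and -0.29 and were not called. Of 667 tested rows 16.5% were lower. Under the deletion with control shRNAs mir-223 was higher by 2.33 (adjusted p = 0.0381 by edgeR), as were 18.8% of 536 rows. There mir-142 stood at 1.68 (adjusted p = 0.0557). The rows mir-1, mir-133a and mir-122 went the other way, at -0.38, -0.61 and -0.13, and were not called. The part of these rows in the results below was not tested.

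Over all libraries mir-320a was the most abundant of the 8 rows, with a mean of 1076 CPM and rank 84 among the miRNA rows. The row mir-484 followed with 409 CPM, then mir-320b with 90.1, mir-320c with 70.7 and mir-320d with 43.1 CPM. The mirtrons were rarer, mir-1226 at 32 CPM (21 to 196 counts per library) and mir-877 at 18.9 CPM (20 to 110 counts). The row mir-320e held 85 counts over all libraries, between 0 and 9 per library, with 8 libraries at 0. A count of 0 allows up to 3 counts, or 0.69 to 1.68 CPM depending on the library (counting error only), and the highest library reached 4.00 CPM. It was too low to be tested, so 7 of the 8 rows entered the fits.

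Under ERH knockdown the rows mir-320b, mir-320c and mir-320d rose against the other miRNAs in every clone, while mir-320a, mir-484 and both mirtrons had no change past the threshold. The knockdown comparison asks whether lowering ERH alters miRNAs known not to depend on the Microprocessor, or their paralogues. Whether mir-320b, mir-320c and mir-320d themselves depend on it was not tested. In wild-type clones 52, 55, 57 and 67 mir-320b stood at 58.9, 70.4, 70.4 and 86.8 CPM with control shRNAs and at 147, 126, 92.0 and 116 CPM with ERH shRNAs. The groups did not overlap, and 16.3% of 613 rows were likewise higher with no overlap. In deletion clones 30, 34, 42 and 43 it stood at 50.3, 92.6, 73.4 and 52.0 CPM with control shRNAs and at 91.8, 116, 84.7 and 114 CPM with ERH shRNAs. Here the groups overlapped, since the control value of clone 34 lay above 2 of the ERH values, yet each clone was higher with ERH shRNAs. Means with SD (n = 4) were 71.6 ± 11.5 and 120.2 ± 22.9 CPM in the wild-type groups and 67.1 ± 19.98 and 102 ± 15.8 CPM in the deletion groups. Over the 8 clones, edgeR's quasi-likelihood test gave a log2 fold change of 0.65 ± 0.15 (SE) with a Benjamini-Hochberg adjusted p of 0.00258.

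The row mir-320c moved with it. Its values with control shRNAs were 46.7, 59.5, 57.2 and 67.3 CPM in wild-type clones 52, 55, 57 and 67, and 115, 98.9, 73.6 and 97.6 CPM with ERH shRNAs. In deletion clones 30, 34, 42 and 43 it went from 39.9, 76.0, 53.0 and 36.7 to 68.3, 94.5, 60.3 and 85.9 CPM. Wild-type groups were again separate, as for 16.3% of 613 rows, and deletion groups overlapped through clone 34. In edgeR its log2 fold change came to 0.64 ± 0.16 (SE) with an adjusted p of 0.00322.

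For mir-320d the wild-type clones read 21.4, 41.3, 34.4 and 43.01 CPM with control shRNAs and 61.8, 62.2, 52.1 and 65.0 CPM with ERH shRNAs. Deletion clones read 24.3, 49.4, 26.4 and 18.3 against 45.03, 63.03, 34.95 and 47.3 CPM. Every wild-type ERH value lay above every wild-type control value, as for 16.3% of 613 rows. Among deletion clones the control value of clone 34 exceeded 3 of the 4 ERH values. With a log2 fold change of 0.75 ± 0.17 (SE) and an adjusted p of 0.00152 in edgeR, it had the highest estimate of the 7 members.

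**Figure D1:**
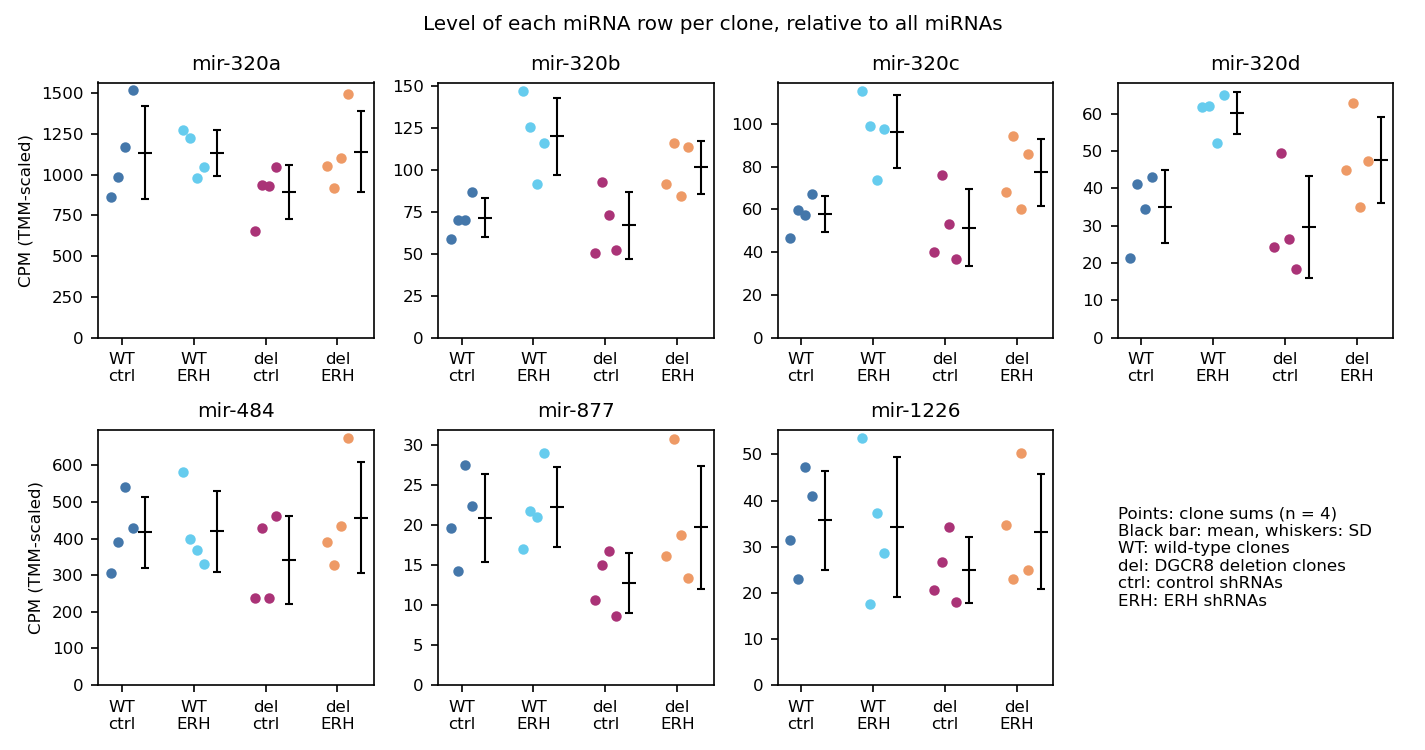
Level of each tested row in TMM-scaled CPM (vertical axes, linear, starting at 0) for the 4 genotype and shRNA groups. Points are clone sums (n = 4 per group), and bars are means with SD. The wild-type control and ERH points of mir-320b, mir-320c and mir-320d do not overlap, and those of mir-320a, mir-484 and both mirtrons do. Of 613 rows tested in wild-type clones, 16.3% were higher with no overlap.

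The row mir-320a, the member best known as a capped precursor, showed no such pattern. Its wild-type clones read 864, 986, 1174 and 1524 CPM with control shRNAs and 1276, 1225, 978 and 1050.0 CPM with ERH shRNAs. Clones 52 and 55 were higher with ERH shRNAs and clones 57 and 67 lower. Deletion clones 30, 34, 42 and 43 went from 657, 939, 933 and 1047 to 1052, 919, 1101 and 1499 CPM, higher in 3 of 4. Over the 8 clones edgeR put the log2 fold change at 0.15 ± 0.14 (SE) with an adjusted p of 0.396.

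The mir-484 row, which shares its first exon with the dynein regulator NDE1, likewise had no change past the threshold. Wild-type clones read 306, 392, 542 and 428 CPM with control shRNAs and 582, 400.0, 369 and 332 CPM with ERH shRNAs, so that 2 clones were higher and 2 lower. Deletion clones read 238, 428, 237 and 463 against 390.5, 327, 434 and 674 CPM, higher in 3 of 4. For mir-484 edgeR estimated 0.19 ± 0.17 (SE) on the log2 scale with an adjusted p of 0.388.

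Of the mirtrons, mir-877 read 19.6, 14.3, 27.5 and 22.4 CPM in wild-type clones with control shRNAs and 17.002, 21.8, 21.1 and 29.05 CPM with ERH shRNAs. In deletion clones it went from 10.6, 15.01, 16.8 and 8.70 to 16.1, 30.8, 18.7 and 13.4 CPM, and all 4 clones were higher. Its estimate over the 8 clones was 0.31 ± 0.19 (log2, SE) with an adjusted p of 0.204 in edgeR. It was called with the first pair of vectors alone (0.64, adjusted p = 0.0474) and was at 0.04 with the second (adjusted p = 0.923). The mirtron mir-1226 read 31.5, 23.01, 47.3 and 40.9 CPM in wild-type clones with control shRNAs and 53.5, 17.6, 37.4 and 28.5 CPM with ERH shRNAs. Deletion clones went from 20.6, 26.6, 34.2 and 18.1 to 34.8, 23.03, 50.3 and 24.8 CPM. Wild-type clones were lower in 3 of 4 and deletion clones higher in 3 of 4, and the edgeR estimate was 0.10 ± 0.19 (log2, SE) with an adjusted p of 0.695.

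In all, on the TMM scale, 3 of the 7 tested members were higher and 0 lower under the knockdown, where 20.1% of 667 tested rows were higher and 16.5% lower. The median log2 fold change was 0.31 over the members and 0.06 over all rows. All 8 clones were higher for mir-320b, mir-320c and mir-320d, as they were for 12.1% of the 667 rows, against 5 clones for mir-320a, 5 for mir-484, 6 for mir-877 and 4 for mir-1226. The 3 rising rows are not separate evidence, since they share most of their sequence. Across the 16 clone sums log2 CPM of mir-320b and mir-320c correlated with r = 0.99, and mir-320c and mir-320d with r = 0.96. Each of the 3 was called with the first pair of vectors alone (log2 fold changes 0.71, 0.73 and 0.80) and with the second pair alone (0.68, 0.63 and 0.78). With these pairs 16% of 586 and 13.2% of 582 rows were higher.

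Rows with a GC-poor hairpin stood higher under the knockdown. The 167 tested rows under 40% GC had a median log2 fold change of 0.44, with 57 higher and 15 lower, while the 93 rows from 40 to 45% had a median of 0.02, with 14 higher and 21 lower. The mir-320b, mir-320c and mir-320d hairpins fall in the second range and mir-320a in the range from 55 to 60%, whose 83 rows had a median of 0.00. Over the 5 ranges from 40% upward the medians lay between -0.15 and 0.02 without a steady trend. After a correction of each sum for GC content the log2 fold changes were 0.51 for mir-320b, 0.57 for mir-320c and 0.63 for mir-320d (adjusted p = 0.0108, 0.00378 and 0.00378 by edgeR), so all 3 stayed called. In sorted bulk RNA, fewer cells holding a miRNA and less of it per cell cannot be told apart.

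Within wild-type clones the same 3 rows were called, with log2 fold changes of 0.73 ± 0.21 for mir-320b, 0.72 ± 0.21 for mir-320c and 0.81 ± 0.23 for mir-320d (SE, adjusted p = 0.0137, 0.0144 and 0.0112 by edgeR). In that comparison 20.9% of 613 rows were higher, and 16.3% were higher with no overlap between the groups. The remaining 4 members lay between -0.13 and 0.08. Without clone 55 only mir-320d was still called, with the GC correction only mir-320c was, and with the vectors of either pair alone none was. Of all rows 14.4% were higher without clone 55 and 11.9% with the GC correction. With the first pair alone 17.8% of 507 rows were higher, and with the second 0.392% of 510. Within deletion clones mir-320b and mir-320d were called, with 0.59 ± 0.17 and 0.71 ± 0.19 (SE, adjusted p = 0.0485 and 0.0371), and mir-320c was not, with 0.59 ± 0.18 (adjusted p = 0.0601). Here 4.27% of 633 rows were higher. The other 4 members lay between 0.31 and 0.58, with mir-877 the highest. Without clone 30, 42 or 43, without the clone as a block, or with the second pair of vectors alone, none was called in deletion clones. Few rows of any kind were higher there. The shares were 0.641, 1.28 and 1.82% without clone 30, 42 and 43. They were 0% of 577 rows without the block and 0.178% of 562 rows with the second pair. Without clone 34, 6 members were called, all higher, as were 8.94% of 615 rows.

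The knockdown effects of the genotypes were compared by an interaction term. None of the 7 members passed, nor did any of the 667 rows (0% called; 127 rows had an unadjusted p under 0.05). The interaction, deletion minus wild-type, was 0.38 ± 0.26 for mir-320a, 0.49 ± 0.33 for mir-484, 0.57 ± 0.32 for mir-877 and 0.56 ± 0.33 for mir-1226 (SE, adjusted p between 0.359 and 0.456 by edgeR). These 4 estimates were positive on the TMM scale, and on the spike-in scale they were -0.02, 0.08, 0.16 and 0.15. For mir-320b, mir-320c and mir-320d it lay between -0.06 and -0.02, and on the spike-in scale it was -0.46, -0.46 and -0.43 (adjusted p = 0.519, 0.541 and 0.630 by edgeR). A difference in knockdown effect of the size of these standard errors was not detectable.

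**Figure D2:**
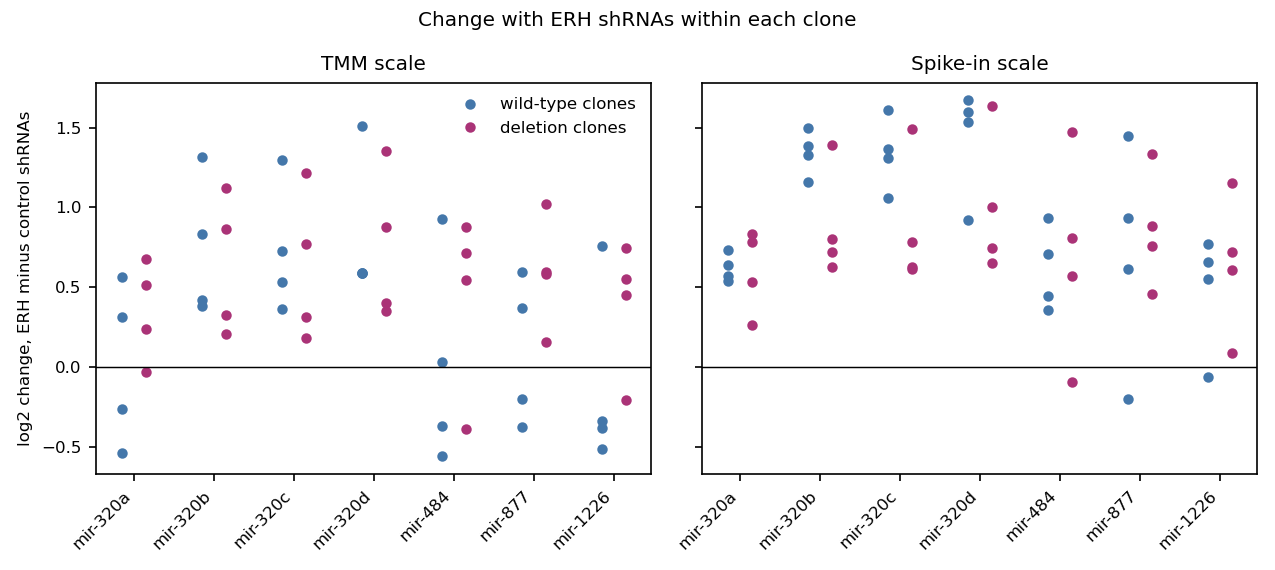
Log2 change with ERH shRNAs within each clone (vertical axis, ERH minus control) for the 7 tested members, on the TMM scale (left) and per spike-in count (right). Each point is 1 clone, wild type or deletion. On the TMM scale mir-320b, mir-320c and mir-320d are above 0 in 8 of 8 clones, and on the spike-in scale mir-320a is as well.

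The same counts of the miR-320 family were also described as shares of their sum, which need no scaling between libraries and are not separate evidence. The row mir-320a made up a median of 84.9% of mir-320 counts, between 76.2 and 91.6% in single libraries. In wild-type clones 52, 55, 57 and 67 its share was 87.1, 85.1, 87.7 and 88.5% with control shRNAs and 79.7, 81.01, 81.7 and 79.0% with ERH shRNAs, with no overlap. The means were 87.1 ± 1.46 and 80.4 ± 1.23% (SD, n = 4). Deletion clones 30, 34, 42 and 43 had 85.1, 81.1, 85.8 and 90.6% with control shRNAs and 83.6, 76.9, 85.8 and 85.8% with ERH shRNAs. Clone 42 stayed at 85.8% and the groups overlapped. The log2 ratio of mir-320b to mir-320e, summed, to mir-320a shifted by 0.51 ± 0.34 (n = 8, SD) under the knockdown and was higher in 7 of 8 clones. A two-sided exact test by sign flips gave p = 0.0156, or 0.141 adjusted over 9 ratio tests. A single ratio standing alone could not go below 0.0703 after this adjustment. The mean change was 0.73 in wild-type and 0.30 in deletion clones, which differ by -0.42 (p = 0.0857 over all exact arrangements of the genotypes, two-sided, 0.386 after adjustment). Whether reads were divided among the mir-320 rows was not tested, and the sequence of mir-320a was not compared with the others. With all 5 mir-320 rows added into 1, the knockdown estimate was 0.23 (log2) with an adjusted p of 0.176 in edgeR.

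**Figure D3:**
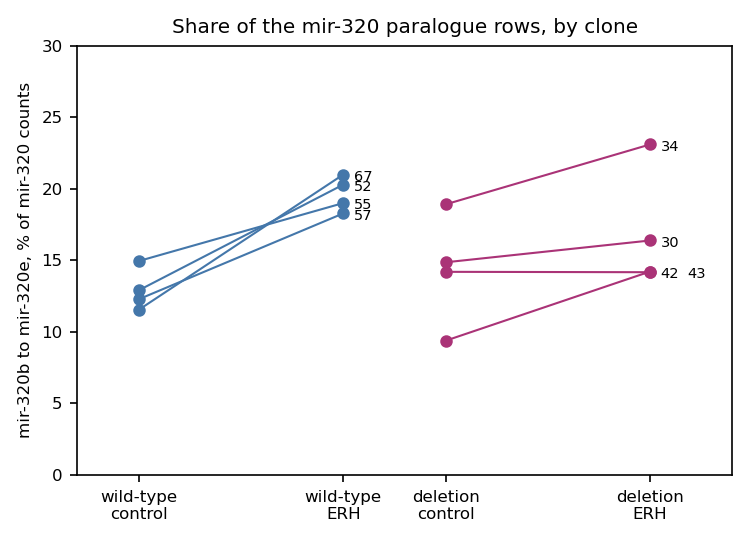
Share of all mir-320 counts in the rows mir-320b to mir-320e (vertical axis, percent, from 0) per clone sum, with lines joining the control and ERH sums of a clone, numbered at the right. In the 4 wild-type clones the share goes from 11.5–14.9% to 18.3–20.98%, and in deletion clone 42 it does not change.

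Removal of the ERH binding site with control shRNAs moved none of the 7 tested members past the threshold. The comparison asks whether the contact between DGCR8 and ERH matters for these miRNAs when ERH is present. The count was 0 in edgeR (0 of 7 in either direction, where 25.9% of 536 rows were called, 18.8% higher and 7.09% lower; 218 rows had an unadjusted p under 0.05). The lowest estimate was that of mir-877, which averaged 20.95 ± 5.51 CPM (SD) in the 4 wild-type and 12.8 ± 3.76 CPM in the 4 deletion clones. Its clones overlapped, since wild-type clone 55 at 14.3 CPM lay below deletion clones 34 and 42. Its log2 fold change of -0.71 ± 0.33 (SE) had an unadjusted p of 0.0478 and an adjusted p of 0.121 in edgeR. The other mirtron, mir-1226, averaged 35.7 ± 10.6 and 24.9 ± 7.18 CPM (SD, n = 4 each). This is -0.52 ± 0.32 on the log2 scale (SE) with an adjusted p of 0.238 in edgeR. For mir-320a the means were 1137 ± 288 and 894 ± 166 CPM (SD, n = 4 each), with a log2 fold change of -0.34 ± 0.23 (SE) and an adjusted p of 0.284 in edgeR. It was called, at -0.70, with the first control vector alone (adjusted p = 0.0337 by edgeR), where 41 of 443 rows were lower. With the second control vector alone 0 members were called, and 13 of 453 rows were lower. For mir-484 the estimate was -0.28 ± 0.29 (adjusted p = 0.490), and mir-320b, mir-320c and mir-320d lay between -0.25 and -0.10. All 7 estimates were negative on the TMM scale, but on the spike-in scale, and likewise with total miRNA scaling, those of mir-320a, mir-484, mir-320b, mir-320c and mir-320d were positive, between 0.10 and 0.34 on the former.

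With ERH shRNAs in both genotypes, again 0 of the 7 members differed between deletion and wild-type clones, and 0% of 569 rows were called (87 had an unadjusted p under 0.05 by edgeR). Their log2 fold changes lay between -0.32 for mir-320d and 0.15 for mir-484. Deletion clones with ERH shRNAs were also set against wild-type clones with control shRNAs, which compares both manipulations with neither. Here 0 of 7 members passed, where 46.8% of 553 rows did and 30.4% were higher (292 rows had an unadjusted p under 0.05). The nearest was mir-320b at 0.57 ± 0.24 (SE, adjusted p = 0.0668 by edgeR), with mir-320c at 0.49 and mir-320d at 0.51. The estimates for mir-320a and mir-484 were 0.07 and 0.19, and those for the mirtrons mir-877 and mir-1226 were -0.02 and -0.04. This comparison shares its control sums with the wild-type knockdown comparison and its ERH sums with that in deletion clones.

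By mean CPM, mir-320b ran from 120.2 in wild-type clones with ERH shRNAs through 102 in deletion clones with ERH shRNAs and 71.6 in wild-type controls to 67.1 in deletion controls. In this order the ranges of mean ± SD overlapped between the groups with ERH shRNAs and between the control groups, and did not overlap between 102 ± 15.8 and 71.6 ± 11.5 CPM. The same order held for mir-320c (96.4, 77.3, 57.7 and 51.4 CPM) and mir-320d (60.3, 47.6, 35.04 and 29.6 CPM), where the ranges of all neighbours overlapped. For mir-320a, mir-484 and both mirtrons the lowest mean was that of deletion controls, and the ranges of neighbours in the order overlapped.

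The spike-in RNAs, added to the total RNA as a defined mix, gave a scale that does not rest on the other miRNAs. Their counts were summed, and 92.6% came from the first of the 4 spike-ins, so the scale rests mainly on that 1 RNA. On it the rows as a whole shifted upward under the knockdown, with a median log2 fold change of 0.52 over the 667 rows against 0.06 on the TMM scale. All 7 tested members were called higher, as were 34.9% of the rows. Per 1000 spike-in counts mir-320a read 90.4, 135, 98.3 and 143 in wild-type clones 52, 55, 57 and 67 with control shRNAs and 134, 210.1, 164 and 207 with ERH shRNAs. In deletion clones 30, 34, 42 and 43 it went from 133, 141, 87.2 and 137 to 193, 169, 156 and 236. All 8 clones were higher, as for 22.6% of rows on this scale. This gave 0.61 ± 0.14 (log2, SE) with an adjusted p of 0.00370 in edgeR, beside the median of 0.52 for all rows.

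The mir-484 row read 32.01, 53.6, 45.4 and 40.1 per 1000 spike-in counts in wild-type controls and 61.1, 68.6, 61.8 and 65.6 with ERH shRNAs, with no overlap, as for 25.8% of 613 rows on this scale. Deletion clones went from 48.3, 64.1, 22.1 and 60.7 to 71.6, 60.2, 61.4 and 106, higher in 3 of 4. On this scale edgeR gave 0.65 ± 0.18 (log2, SE) with an adjusted p of 0.00853. The mirtrons mir-877 and mir-1226 had 0.78 ± 0.22 and 0.57 ± 0.20 (SE, adjusted p = 0.0106 and 0.0302) and were each higher in 7 of 8 clones. The exceptions were wild-type clone 52 for mir-877 and wild-type clone 55 for mir-1226. For mir-320b, mir-320c and mir-320d the log2 fold changes were 1.11, 1.11 and 1.22 (adjusted p = 0.000472, 0.000528 and 0.000472), above the median of all rows on this scale too. With deletion and ERH shRNAs against wild-type controls, 5 of 7 members were called higher on the spike-in scale (43% of 553 rows), and mir-877 and mir-1226 were not. Within wild-type clones 3 of 7 were called higher on this scale (27.7% of 613 rows), and within deletion clones 5 of 7 (13.4% of 633 rows). The deletion alone called 0 of 7 (25% of 536 rows were higher) and the interaction 0 of 7 (0% of 667 rows).

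**Figure D4:**
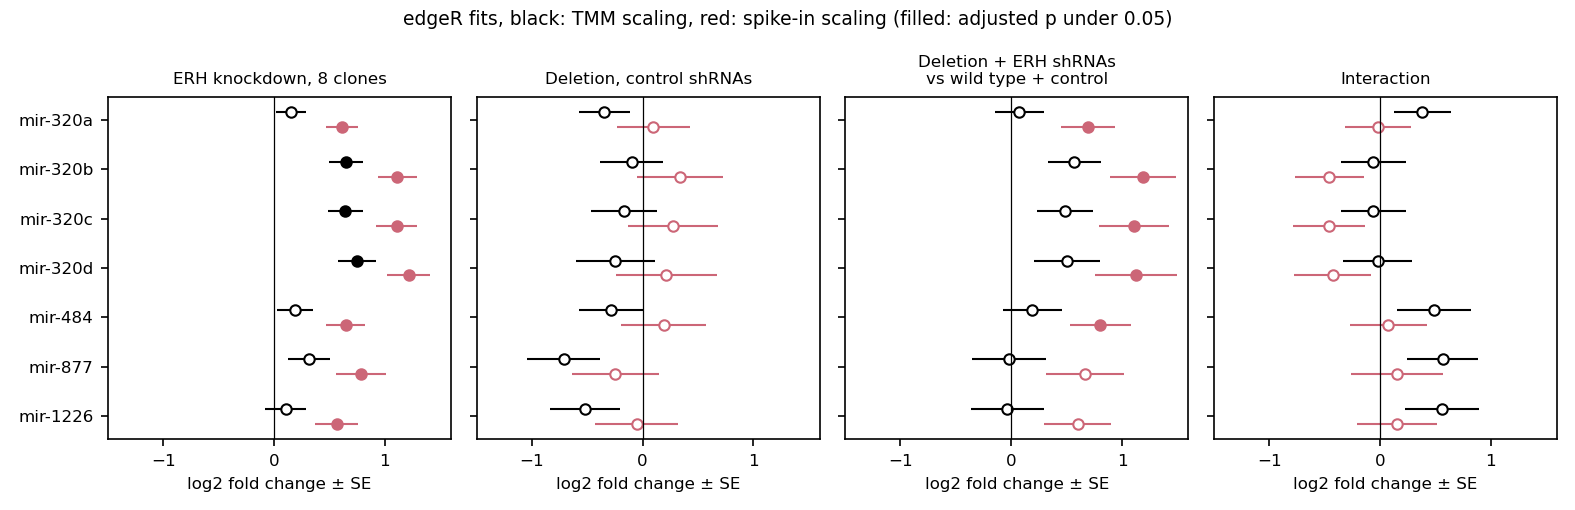
Log2 fold change with SE (horizontal axes) of the 7 tested members in 4 edgeR fits, with TMM scaling in black and spike-in scaling in red, and filled points for an adjusted p under 0.05. Under the knockdown 3 members are called on the TMM scale and 7 on the spike-in scale, and under the deletion none on either.

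Ratios between members were compared in the same way. The log2 ratio of mir-320a to mir-484 was 1.44 with control shRNAs and 1.40 with ERH shRNAs over the 8 clones, a change of -0.04 ± 0.35 (SD, n = 8; p = 0.766 by exact sign flips, two-sided). Between genotypes under control shRNAs it averaged 1.44 ± 0.30 in wild-type and 1.44 ± 0.39 in deletion clones (SD, n = 4; p = 0.971 by exact permutation, two-sided). The log2 ratio of mir-877 to mir-484 changed by 0.13 ± 0.81 under the knockdown (SD, n = 8; exact sign-flip permutation p = 0.648) and was -4.32 ± 0.34 in wild-type and -4.72 ± 0.80 in deletion controls (SD, n = 4; exact permutation p = 0.400). Their adjusted p-values were all 0.971 over the 9 ratio tests. The smallest p-values these designs allow are 0.00781 for sign flips and 0.0286 for genotypes, or 0.0703 and 0.257 after adjustment for a ratio standing alone, so that none could pass 0.05 by itself.

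Among the members, mir-320a and mir-484 had r = 0.79 in log2 CPM across the 16 sums, and mir-877 and mir-484 had r = -0.04. The sums of a clone share their cells and the values share a scaling, so these correlations are descriptions. Outside the members, 360 rows of at least 10 CPM were searched for the most similar pattern. For mir-320a it was mir-1180 (r = 0.82), followed by mir-3615 and mir-1301, and mir-1180 also led for mir-484 (r = 0.77), followed by mir-328 and mir-3618. The row mir-3187 led for mir-320b, mir-320c and mir-320d (r = 0.78, 0.78 and 0.79). For mir-877 the nearest rows were mir-151a (r = 0.71), mir-182 and mir-324, and for mir-1226 they were mir-149 (r = 0.82), mir-30d and mir-1843.

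Rows of other mirtrons were sparse. Of 8 further mirtrons (mir-1224, mir-1225, mir-1227, mir-1228, mir-1229, mir-1236, mir-1237 and mir-1238) none was abundant enough to test, with 1 to 80 counts each over all libraries. Hairpins that lie in snoRNA genes are another source of DGCR8-independent small RNAs. Of 7 listed, 5 had a row, and these were tested under the knockdown. Of the 5, 0 were called, with a median log2 fold change of 0.03, where 20.1% of all rows were higher and 16.5% lower. On the spike-in scale mir-1248 was called higher (0.92, adjusted p = 0.00463 by edgeR), 1 of the 5, where 34.9% of all rows were. A list of 5 canonical hairpins from clusters was chosen with earlier results of these data known, so its counts do not stand for canonical hairpins at large. Of the 5, 4 were lower under the knockdown (16.5% of all rows), and the median over the 5 was -1.04. The 4 were mir-15a at -1.75, mir-15b at -1.04, mir-16 at -0.26 and mir-451a at -1.20 (adjusted p at most 0.0276 by edgeR). Of these mir-451a is cut by the Microprocessor but matured by AGO2 in place of DICER. On the spike-in scale mir-16 was at 0.21 and not called, and neither was mir-451a. Under the deletion 2 of the 5 were lower, mir-15b (-0.94) with mir-16 (-0.47), where 7.09% of all rows were, but neither was called on the spike-in scale. The row mir-3155a carries the seed of miR-484, and its route was not examined. It was chosen after its values were seen, so its p-value is only a description. Under the knockdown it rose by 1.29 ± 0.25 (log2, SE; adjusted p = 0.000396 in edgeR), where 20.1% of all rows were higher. Its mean level was 7.19 CPM.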

How the data were processed

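The members and lists were chosen with earlier results of these data known. QIAseq miRNA libraries were made from 100 ng of a mixture of 400 ng RNA and 4 spike-in small RNAs, per the labels' protocols. The deposited table held raw read counts per precursor name for 1513 miRNA rows and 4 spike-ins; 0 columns lacked a sample. SAMtools is the only tool in the submitters' processing notes. Aligner, annotation, build and use of molecular identifiers are not given in the sources used here, so counts may hold amplification copies and reads may be shared between near-identical rows.

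Within each clone the counts of an arm's libraries were added (16 sums). Differences were tested with edgeR 4.0.16 (R 4.3.3): filterByExpr, TMM scaling, quasi-likelihood test, Benjamini-Hochberg adjustment over all tested rows, threshold 0.05. Knockdown and interaction fits had the clone as a block. The labels give every clone all 4 vectors, and over miRNAs the control and ERH deviations from group means of 1 clone correlated, with r between 0.35 and 0.63 in the 8 clones. The labels call each clone a batch. In fits with the clone as a block, p-values rest on how the within-clone changes vary from clone to clone. In the other fits they measure the spread between clones. Ratios were tested by exact permutation. The script was tested on simulated counts. Library totals ran from 1318923 to 6222790 counts. Within groups, library pairs differed by at least 75.4 chi-square per degree of freedom, so none was treated as a copy.

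Named rows were the 8 members, members of the fixed lists past the threshold, and the 3 rows most correlated with each member. Alternatives were spike-in or total scaling, DESeq2 1.42.0, other filters, single vector pairs, each clone left out, no block, a GC correction (loess span 0.75; 99.2% of rows had a GC value) and summed mir-320 rows.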

Additional observations from a re-analysis of the deposited data

How the results depend on the processing

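Of 300 values of single members under other settings (each clone left out aside), 230 kept direction and side of the threshold, 14 lost the call, 25 gained one and 31 changed sign; over 248 values without 1 clone these were 219, 8, 1 and 20. The knockdown in all clones called 3 members, and 3 without any 1 clone. It called 4 with the first vector pair (mir-877 added), 3 with the second, 7 with spike-in and 6 with total miRNA scaling. All were higher, beside 16 and 13.2% of rows with the first and second pair. The shares were 34.9% with spike-in and 31.5% with total scaling, and 13.7 to 21.1% without 1 clone. In wild-type clones 3 became 0 with either vector pair, 1 with the GC correction and 1 to 3 without 1 clone. Of all rows 17.8% were higher with the first pair but 0.392% with the second, where nearly no row was called. The shares were 11.9% with the GC correction and 12.3 to 22% without 1 clone. In deletion clones 2 became 5 with spike-in and 5 with total scaling, beside 13.4 and 13.6% of rows higher. They became 6 and 0 with the first and second vector pair (6.76 and 0.178% of rows higher). With the GC correction there was 1 (4.27%), and without 1 clone 0 to 6 (0.641 to 8.94%). Without the clone as replicate block the 2 calls in deletion clones became 0, where 0% of rows were higher. The 3 calls in wild-type clones became 2 (12.6% of rows higher). The deletion called 1 lower with the first vector pair instead of 0, where 41 of 443 rows were lower. Deletion with ERH shRNAs against wild-type controls called 5, 4 and 1 higher instead of 0. These came with spike-in scaling, total scaling and a mean of at least 100 counts (43, 41.8 and 28.2% of rows higher). The cause of these changes was not tested. Within wild-type or deletion clones alone the single values cover only mir-320b, mir-320c and mir-320d, and the other members enter through these counts.

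Signs changed only for estimates that had not passed. Under the deletion mir-320a, mir-320b, mir-320c, mir-320d and mir-484 became 0.10, 0.34, 0.28, 0.22 and 0.19 with spike-in and 0.077, 0.35, 0.28, 0.21 and 0.16 with total scaling; mir-320b and mir-320c became 0.071 and 0.0032 with the mean filter and 0.12 and 0.056 with the second vector pair, and mir-320b ran from -0.30 to 0.078 without 1 clone. With both manipulations mir-877 and mir-1226 became 0.67 and 0.60 (spike-in) and 0.52 and 0.46 (total), mir-320a and mir-484 became -0.16 and -0.034 (DESeq2), mir-1226 0.092 (mean filter) and mir-877 0.37 (first vector pair). Without 1 clone mir-320a ran from -0.095 to 0.22, mir-484 from -0.061 to 0.35, mir-877 from -0.32 to 0.14 and mir-1226 from -0.29 to 0.13. The interaction of mir-320a became -0.017 with spike-in scaling and -0.037 with the second vector pair, and that of mir-320d 0.028 with DESeq2. For mir-320b, mir-320c and mir-320d it became 0.26, 0.23 and 0.16 with the first vector pair and 0.17, 0.066 and 0.17 with the GC correction, and ran from -0.25 to 0.14, -0.28 to 0.13 and -0.24 to 0.21 without 1 clone. The log2 ratio of mir-320a to mir-484 became 0.0033 (knockdown) and 0.078 (deletion) with the second vector pair and 0.026 (difference of knockdown effects) with the first; without 1 clone these ran from -0.095 to 0.048, -0.18 to 0.13 and -0.24 to 0.088. For mir-877 to mir-484 the knockdown became -0.0016 and the difference -0.18 with the second vector pair, with ranges of -0.056 to 0.31 and -0.34 to 0.37 without 1 clone. For mir-320b to mir-320e against mir-320a the deletion ran from -0.035 to 0.36. Depth limits mir-877, mir-1226 and mir-320e most, which had at most 110, 196 and 9 counts in a library.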
